A study of Mus musculus with 7 samples.

Results

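The drug metabolizing cytochrome P450 genes of families 1 to 3 were taken as the protein-coding genes of the deposited table whose symbol is Cyp, a family number of 1, 2 or 3, a subfamily letter and a gene number. This rule found 58 of 54532 genes, in 16 subfamilies. Near copies named with a further letter, such as Cyp3a41a, fall outside it. Liver RNA of old C57BL/6 mice was measured in 3 libraries from animals on a standard diet after supplementation with MDL-800, a small-molecule activator of the deacetylase SIRT6, and in 4 control libraries from animals on a standard diet alone. All 7 libraries share strain, tissue and the label old; dose, duration and sex are not given in the labels. The labels do not state that the libraries are from different animals, and p-values below refer to the variation among libraries, which may be technical.

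These enzymes sit in the endoplasmic reticulum and add oxygen to drugs, pollutants, steroids, bile acids and fatty acids, taking electrons from P450 oxidoreductase and cytochrome b5. Family 1 is the classical target of the aryl hydrocarbon receptor AhR. Subfamilies 2b, 2c and 3a hold the classical targets of the constitutive androstane receptor CAR and the pregnane X receptor PXR, and in mouse liver many members of 2a, 2b, 2c, 2d and 3a are known to differ between the sexes under the pattern of growth hormone release.

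Libraries held 17600066 to 19920469 recovered reads in genes, and the members took 1.83% to 2.29% of each library's summed FPKM (fragments per kilobase of gene, scaled to library size). Control 1 and MDL-800 2 held 2173 and 3514 reads summed over 4 Y-linked genes, Uty, Eif2s3y, Kdm5d and Ddx3y; the other 5 libraries, called Y-negative here, held 0. Xist had 15495 to 21104 reads in 4 of the Y-negative libraries, 0 in control 3 and 3 in each of the other two. The treatments thus each had 1 library with Y-linked reads, and the comparison of treatments is also given for the Y-negative libraries alone. All 8 hepatocyte markers were detected, with a summed level of 54810 to 82649 FPKM. In bulk tissue, fewer cells of a type and less RNA per cell cannot be told apart.

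A mean of at least 1 FPKM over the 7 libraries was found for 40 of the 58 members, and these were tested. Of these, 25 had a mean of at least 100 FPKM, 8 lay between 10 and 100, and 7 between 1 and 10. The lowest mean tested was that of Cyp2j9, 1.88 FPKM, and the highest mean left out was that of Cyp2d11, 0.520 FPKM. Among the 18 members left out, Cyp2b23, Cyp2c66, Cyp2j7, Cyp2j11, Cyp2j12, Cyp2j13 and Cyp2w1 had 0 reads in every library. The other 11 were Cyp1a1, Cyp1b1, Cyp2b19, Cyp2c65, Cyp2d11, Cyp2d12, Cyp2d34, Cyp2j8, Cyp2s1, Cyp2t4 and Cyp3a57. By level per length, Cyp2e1 came first with a mean of 2970.2 FPKM over the 7 libraries, followed by Cyp2d26 at 621, Cyp2c70 at 495 and Cyp2c37 at 441 FPKM.

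**Figure D1:**
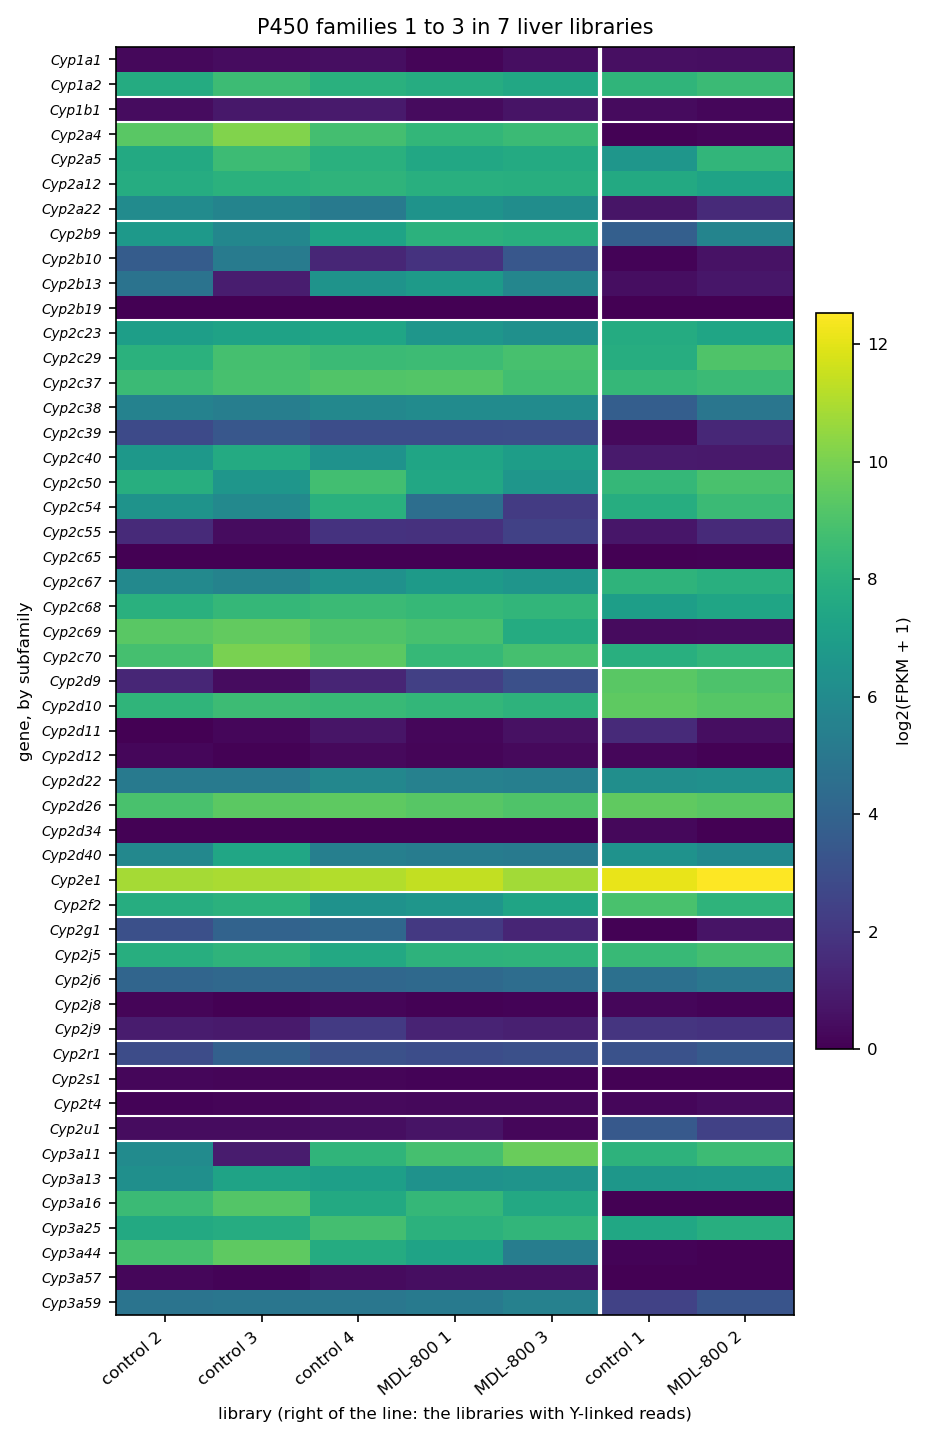
Heat map of log2(FPKM + 1) for the 51 members with a read in any library (rows, ordered by subfamily) in the 7 libraries (columns, the Y-negative libraries left of the white line). Cyp2e1 was the brightest row in each library, and rows such as Cyp2a4, Cyp2c69 and Cyp3a16 were dark only in the right 2 columns, while Cyp2d9 was bright only there.

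The members' summed FPKM averaged 10265.5 ± 2342 over 3 MDL-800 libraries and 10122 ± 1226 over 4 controls (SD), a difference smaller than the spread within either group. Cyp2c was the largest subfamily by number, with 15 members, and contributed 18.7% to 35.5% of the members' FPKM. Cyp2e1 alone contributed 41.4% and 46.1% in control 1 and MDL-800 2 and 17.3% to 27.8% in the Y-negative libraries. Cyp2a contributed 2.75% and 3.55% in control 1 and MDL-800 2 and 8.59% to 15.9% in the others, and Cyp3a contributed 5.25% and 5.64% against 13.0% to 17.6%.

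**Figure D2:**
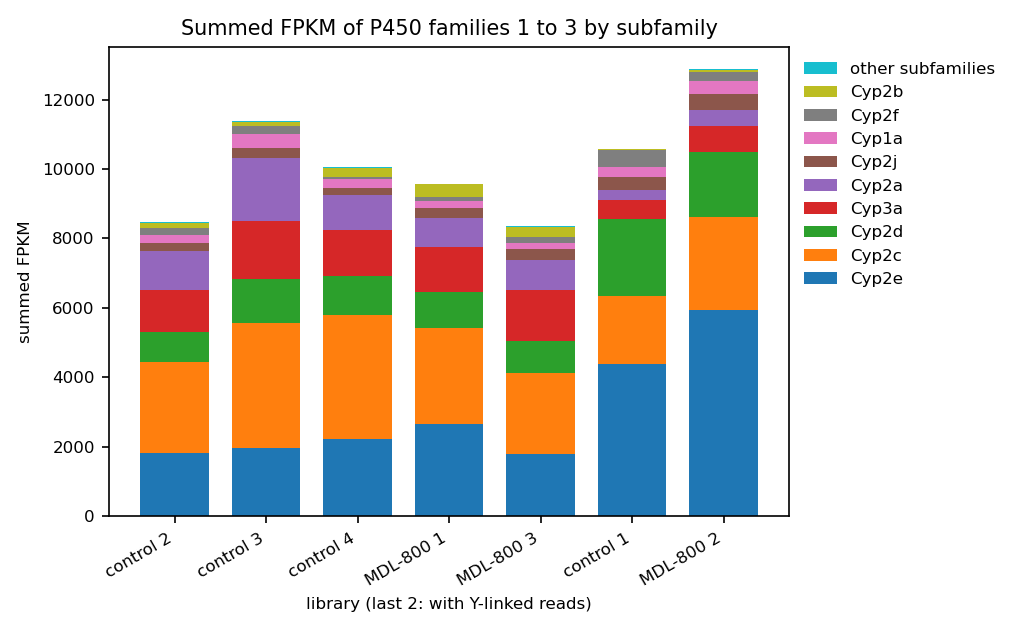
Stacked bars of the summed FPKM of each subfamily in each library, starting at 0, with the libraries holding Y-linked reads at the right. The Cyp2e bar was 4381 and 5938 FPKM in those 2 libraries and 1791 to 2662 FPKM in the other 5, whose Cyp2a and Cyp3a bars were the larger ones.

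Whether MDL-800 livers differed from control livers in these genes was asked first. None of the 40 tested members passed the limma test at an adjusted p under 0.05, where 0.0% of the 11394 genes tested passed. No member had an unadjusted limma p under 0.05, against 4.85% of all genes tested. By limma voom on recovered reads 0 passed and 1 had an unadjusted p under 0.05. With summed reads as the denominator 2 members had one, beside 757 of 10962 genes. Without control 1 it was 4 members, beside 948 of 11442 genes. With a term for Y-linked reads it was 8 members, beside 828 of 11394 genes, and 0 passed in each of these fits. Log2 fold changes were above 0 for 19 members and below 0 for 21, with a median of -0.06, beside 0.02 for all genes tested and 54.2% of all genes above 0. The median size of the fold change, regardless of sign, was 0.34 for the members and 0.14 for all genes. Of the 40, Cyp3a11 had groups that did not overlap, with every MDL-800 library higher, where 4.03% of all genes were higher without overlap and 6.45% differed without overlap in either direction. Values are listed below in label order, control 1 to 4 and then MDL-800 1 to 3.

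Subfamily 3a, which oxidizes the widest range of drugs and steroids, held that gene. Cyp3a11 (chr5:145854426-145879964, GRCm38), the standard PXR target of mouse liver, measured 278, 65.4, 0.943 and 293 FPKM in control and 451, 384 and 809 FPKM in MDL-800. Every MDL-800 library was above every control, and control 3, under 1 FPKM, stood far below the other controls. The log2 fold change was 3.19 (SE 1.71, 95% interval -0.84 to 7.22, limma, adjusted p = 0.950). Without control 3 it was 1.56 (SE 0.64), with an unadjusted limma p of 0.0512.

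The other 5 tested members of 3a had overlapping groups. Cyp3a25 measured 175, 192, 217 and 446 FPKM in control and 262, 233 and 304 FPKM in MDL-800, and control 4 was the highest. Its log2 fold change was 0.15 (SE 0.33). Cyp3a16 and Cyp3a44, both known for higher levels in female liver, were at or near 0 in control 1 and MDL-800 2. For Cyp3a16 the values were 0, 378, 587 and 194 FPKM in control and 321, 0 and 186 FPKM in MDL-800. Cyp3a44 measured 0.0703, 452, 687 and 212 FPKM in control and 153, 0 and 39.1 FPKM in MDL-800, with both Y-negative MDL-800 libraries under the 3 Y-negative controls. Cyp3a13 and Cyp3a59 had log2 fold changes of -0.28 and 0.34. Cyp3a57 stayed at or under 0.377 FPKM in every library.

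Within family 1, Cyp1a2, which oxidizes caffeine and aromatic amines, measured 296, 206, 392 and 249 FPKM in control and 216, 367 and 182 FPKM in MDL-800. The groups overlapped, with a log2 fold change of -0.19 (SE 0.31, 95% interval -0.92 to 0.54), and its sign changed without MDL-800 3. The inducible Cyp1a1 was low in each group, at 0.421, 0.221, 0.355 and 0.365 FPKM in control and 0.125, 0.393 and 0.388 FPKM in MDL-800. Cyp1b1, which is expressed mainly outside hepatocytes, was at 0.269, 0.331, 0.757 and 0.847 FPKM in control and 0.293, 0.176 and 0.589 FPKM in MDL-800. Neither of the low pair reached 1 FPKM in any library, and neither was tested.

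In subfamily 2b, the CAR target Cyp2b10 measured 0.0979, 11.7, 36.4 and 1.54 FPKM in control and 2.63, 0.518 and 9.63 FPKM in MDL-800. Control 3, the library with the lowest Cyp3a11, had the highest Cyp2b10. The log2 fold change of Cyp2b10 was -0.64 (SE 1.27), and it changed sign without control 3 or without MDL-800 2. Cyp2b9, a steroid hydroxylase, measured 13.0, 109.6, 55.2 and 152 FPKM in control and 263, 48.7 and 242 FPKM in MDL-800. Both Y-negative MDL-800 libraries were above all controls for Cyp2b9, but MDL-800 2 was not, and the log2 fold change was 1.29 (SE 0.94, 95% interval -0.94 to 3.52). Its neighbour Cyp2b13 measured 0.368, 26.0, 1.02 and 87.0 FPKM in control and 111, 0.686 and 52.3 FPKM in MDL-800, with control 1, control 3 and MDL-800 2 all near or under 1 FPKM.

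Among the 13 tested members of 2c, which act on arachidonic and linoleic acid, steroids and drugs, 7 were above 0 and 6 below. Cyp2c55, a CAR and PXR responsive gene known best from the intestine, measured 0.691, 1.78, 0.319 and 2.55 FPKM in control and 2.50, 1.84 and 4.34 FPKM in MDL-800. It had the smallest unadjusted p of the members, with a log2 fold change of 0.79 (SE 0.39) and an unadjusted limma p of 0.0775. Fold changes are on the log2(FPKM + 1) scale, which understates the change of low genes, and with a pseudocount of 0.1 in place of 1 that of Cyp2c55 was 1.31. Cyp2c29, which is induced through CAR, measured 227, 258, 462 and 374 FPKM in control and 389, 538 and 472 FPKM in MDL-800. Its log2 fold change was 0.54 (SE 0.28, limma, adjusted p = 0.950), and 0.27 among the Y-negative libraries.

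Among members lower in MDL-800, Cyp2c23, an epoxygenase of arachidonic acid, had the smallest unadjusted p, but not the largest difference, which was that of Cyp3a44 at -2.32. Cyp2c23 measured 207, 128, 146 and 167 FPKM in control and 95.5, 163 and 76.9 FPKM in MDL-800. MDL-800 1 and 3 were under all controls and MDL-800 2 lay among them, giving a log2 fold change of -0.58 (SE 0.29, limma, adjusted p = 0.950). Cyp2c54, a further fatty acid epoxygenase, measured 220.0, 84.8, 58.2 and 252 FPKM in control and 21.8, 374 and 3.58 FPKM in MDL-800. The 2 extremes of Cyp2c54 were both MDL-800 libraries, and its log2 fold change was -1.94 (SE 1.40). Cyp2c70, which makes the muricholic acids of mouse bile, measured 236, 449.8, 1019 and 656 FPKM in control and 342, 299 and 462 FPKM in MDL-800, highest in control 3.

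Other members of 2c were abundant or differed with Y-linked reads. Cyp2c37 measured 326, 369, 468 and 552 FPKM in control and 572, 377 and 420.4 FPKM in MDL-800, with overlapping groups. For Cyp2c67 the values were 287, 57.8, 47.5 and 80.8 FPKM in control and 113, 242 and 91.4 FPKM in MDL-800, highest in the libraries with Y-linked reads. Cyp2c40 and Cyp2c69 were the opposite. Cyp2c40 measured 0.880, 101, 202 and 82.3 FPKM in control and 166, 0.821 and 125 FPKM in MDL-800, and Cyp2c69 measured 0.312, 635, 729.8 and 548 FPKM in control and 472, 0.327 and 210.5 FPKM in MDL-800. Both were under 1 FPKM in control 1 and MDL-800 2. The remaining tested members of 2c, Cyp2c38, Cyp2c39, Cyp2c50 and Cyp2c68, had log2 fold changes of 0.56, 0.07, -0.21 and 0.05.

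Subfamily 2a metabolizes coumarin and steroids. Cyp2a5, the coumarin 7-hydroxylase, measured 94.6, 194, 385 and 248 FPKM in control and 182, 301 and 198 FPKM in MDL-800. Control 1 was the lowest and control 3 the highest, and the log2 fold change of 0.11 (SE 0.46) changed sign in the Y-negative libraries, to -0.475. Cyp2a4, a steroid 15-alpha-hydroxylase and near copy of Cyp2a5, measured 0.0397, 651, 1125 and 445 FPKM in control and 316, 0.111 and 379 FPKM in MDL-800. The control 1 and MDL-800 2 values of Cyp2a4 rested on 1 and 3 reads. Cyp2a22 measured 0.620, 65.5, 49.3 and 34.8 FPKM in control and 85.1, 1.77 and 69.0 FPKM in MDL-800, again low in the same 2 libraries. Cyp2a12 had a log2 fold change of -0.19.

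In subfamily 2d, Cyp2d26 varied least among the named members, at 723, 482, 654 and 689.7 FPKM in control and 619, 635 and 544 FPKM in MDL-800. Cyp2d10 measured 682, 295, 388 and 349 FPKM in control and 319, 591 and 279 FPKM in MDL-800. Cyp2d9, a testosterone 16-alpha-hydroxylase, measured 635, 1.57, 0.319 and 1.48 FPKM in control and 4.25, 524 and 7.22 FPKM in MDL-800, so that control 1 and MDL-800 2 exceeded every other library. Cyp2d40 measured 81.7, 56.5, 172 and 42.1 FPKM in control and 37.8, 61.3 and 33.2 FPKM in MDL-800, with a log2 fold change of -0.82 (SE 0.48) and control 3 far above the rest. Cyp2d22 had a log2 fold change of 0.16.

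Cyp2e1, which oxidizes ethanol and acetaminophen, measured 4381, 1831, 1973 and 2216 FPKM in control and 2662, 5938 and 1791 FPKM in MDL-800. Its level was 3464 ± 2186 FPKM over 3 MDL-800 libraries against 2600.3 ± 1198 FPKM over 4 controls (mean ± SD), the groups overlapped, and the log2 fold change of 0.32 (SE 0.47) turned to -0.16 without MDL-800 2. Cyp2f2, which activates naphthalene, measured 483, 223, 255 and 84.1 FPKM in control and 96.6, 279 and 162 FPKM in MDL-800. Its log2 fold change was -0.42 (SE 0.61). Cyp2g1, known from the olfactory epithelium, measured 0.0643, 7.24, 14.8 and 17.2 FPKM in control and 3.29, 0.600 and 1.43 FPKM in MDL-800. Controls 2 to 4 were the 3 highest libraries for Cyp2g1, and the log2 fold change was -1.47 (SE 0.99).

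Of the 8 members of 2j, which make epoxides of arachidonic acid, 3 were tested. Cyp2j5 measured 347, 234, 280.1 and 190.0 FPKM in control and 276, 440.1 and 281 FPKM in MDL-800. Cyp2j6 measured 23.5, 16.0, 17.9 and 17.5 FPKM in control and 18.7, 29.9 and 21.5 FPKM in MDL-800. In both genes MDL-800 2 was the highest library and control 1 the next, and the log2 fold changes were 0.34 (SE 0.26) and 0.29 (SE 0.20). Cyp2j9 was at -0.08. Cyp2u1, a fatty acid hydroxylase, measured 10.5, 0.324, 0.350 and 0.362 FPKM in control and 0.574, 4.40 and 0.185 FPKM in MDL-800, and Cyp2r1, the vitamin D 25-hydroxylase, had a log2 fold change of -0.05.

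**Figure D3:**
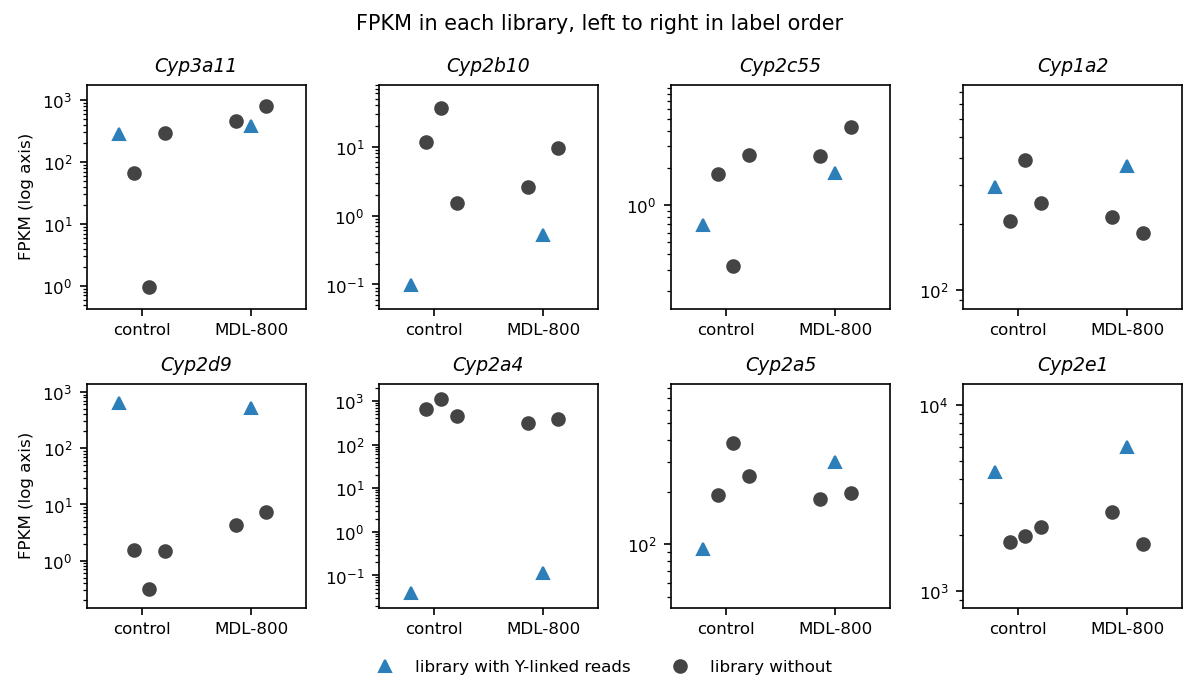
FPKM of 8 members in each library on log axes, by treatment, with triangles for the libraries holding Y-linked reads. Cyp3a11 was higher in all 3 MDL-800 libraries than in any control, and Cyp2b10 and Cyp2c55 overlapped between treatments. The triangles stood apart for Cyp2d9, Cyp2a4, Cyp2e1 and Cyp2b10 but not for Cyp2a5.

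Restricting the comparison to the 2 MDL-800 and 3 control libraries without Y-linked reads called 0 of the 39 members tested there (limma), where 0.0% of 11493 genes passed, with a lowest adjusted p of 0.626 among the members. An unadjusted limma p under 0.05 was found for 8 members, against 5.25% of all genes. Cyp2d9, Cyp2b9 and Cyp2c67 were higher in MDL-800 there, at log2 fold changes of 1.69, 1.37 and 0.74. Cyp2g1, Cyp2c23, Cyp2c54, Cyp3a44 and Cyp2c69 were lower, at -2.04, -0.76, -3.41, -2.37 and -1.004. Their unadjusted limma p ran from 0.00388 for Cyp2g1 to 0.0420 for Cyp2c69. Groups did not overlap for 8 members in the higher and 7 in the lower direction, against 13.0% and 9.6% of all genes, or 22.6% in either direction. Values were above 0 for 18 members and below 0 for 21, beside 52.9% of all genes above 0. Signs differed from those over all libraries for Cyp2a5, Cyp2c39 and Cyp2c40.

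The members also varied widely among the Y-negative libraries. Between the lowest and the highest of these 5 libraries, 25 of the 40 members differed by more than 1 on the log2 scale, beside 17.4% of all genes tested. Above a mean of 100 FPKM it was 17 of 25 members, beside 27.2% of genes. Control 3, with 0 reads of Xist and of the Y-linked genes, was often an extreme. Of the members that differed by more than 1, all but Cyp2a22, Cyp2c23, Cyp2c54, Cyp2g1 and Cyp3a25 had it as the lowest or highest library. How often control 3 was an extreme over all genes was not counted, so this cannot be called particular to the members. The part of control 3 in these ranges was not tested. Cyp3a11 spanned 858-fold, from control 3 to MDL-800 3, and Cyp2b13 spanned 109-fold. Cyp2c54 spanned 70.4-fold and Cyp2b10 23.6-fold.

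Members were then compared between the 2 libraries with Y-linked reads and the 5 without, at equal treatment. The presence of reads of the 4 Y-linked genes defined this comparison and no P450 gene was used. The filter of a mean of at least 1 FPKM over all 7 libraries admitted some members through the group where they were high. Of the members called below, Cyp2u1 averaged 0.359 FPKM without Y-linked reads. Cyp2a4, Cyp2c39, Cyp2c40, Cyp2c69, Cyp3a16 and Cyp3a44 averaged at most 0.947 FPKM with them. The shares of all genes were taken under the same filter. Limma called 16 of the 40 tested members at an adjusted p under 0.05, against 2.42% of all genes. Of these, 5 were higher with Y-linked reads and 11 were lower, where 1.33% and 1.1% of all genes passed in each direction. An unadjusted p under 0.05 was found for 27, against 22.7% of all genes, and values were above 0 for 18, beside 61.1% of all genes. The groups did not overlap for 9 members in the higher and 16 in the lower direction, beside 20.0% and 12.8% of all genes, or 32.8% in either direction. All 16 kept their sign under every alternative in which they were tested. Leaving out control 1 reduced their number to 6, leaving out MDL-800 2 to 10, and leaving out MDL-800 1 or 3 to 9 each, and it was 9 without a filter on low values and 11 with limma voom on recovered reads. Cyp2a4, Cyp2a22, Cyp2c40, Cyp2c69, Cyp2d9 and Cyp3a16 passed in each of the 7 fits that left out 1 library, although Cyp3a16 did not pass with voom.

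The 5 members that rose with Y-linked reads came from 4 subfamilies. Cyp2d9 had a log2 fold change of 7.36 (SE 0.50, limma, adjusted p = 0.00144), with a mean of 579.7 FPKM against 2.97 FPKM, or 195-fold. Cyp2d10 was 1.95-fold higher, with a log2 fold change of 0.99 (SE 0.16, limma, adjusted p = 0.0376). Cyp2e1 rose by 1.28 (SE 0.21, limma, adjusted p = 0.0417), and this call was lost in each fit that left out a library. Cyp2c67 rose by 1.77 (SE 0.29) and Cyp2u1 by 2.57 (SE 0.26). Cyp2u1 lost its call without control 1. Cyp2c67 kept its call in the fit without control 3 alone, and Cyp2d10 in those without control 2 or control 3. Cyp2c54 and Cyp2f2 were also among the 6 largest positive values, at 2.99 and 1.34, and did not pass, and neither did Cyp3a11 at 1.31, which turned to -0.65 without control 1.

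The 11 members that fell belonged to 2a, 2b, 2c and 3a. In 2a they were Cyp2a4 and Cyp2a22, at -8.86 and -4.87, while Cyp2a5 at -0.47 and Cyp2a12 at -0.47 did not pass. In 2c they were Cyp2c69, Cyp2c40, Cyp2c39, Cyp2c38 and Cyp2c68, from -8.44 to -1.13. In 3a they were Cyp3a16, Cyp3a44 and Cyp3a59, at -8.21, -7.50 and -2.25. In 2b it was Cyp2b9 at -2.60, and Cyp2b13 at -4.51 and Cyp2b10 at -2.69 were lower without overlap but did not pass. Cyp3a16 had 0 reads in both libraries with Y-linked reads and a mean of 333 FPKM in the others, at least 2788-fold higher when 3 reads per library are taken as the limit for 0. The fitted values of genes at or near 0 reads depend on the pseudocount of 1. Without control 1, the calls of Cyp3a44, Cyp2b9, Cyp3a59, Cyp2c39, Cyp2c38 and Cyp2c68 were lost. Those of Cyp2b9, Cyp2c38 and Cyp2c68 were also lost without any 1 of the 3 MDL-800 libraries, that of Cyp2c39 without MDL-800 1 or 3, and that of Cyp2c68 without control 3.

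**Figure D4:**
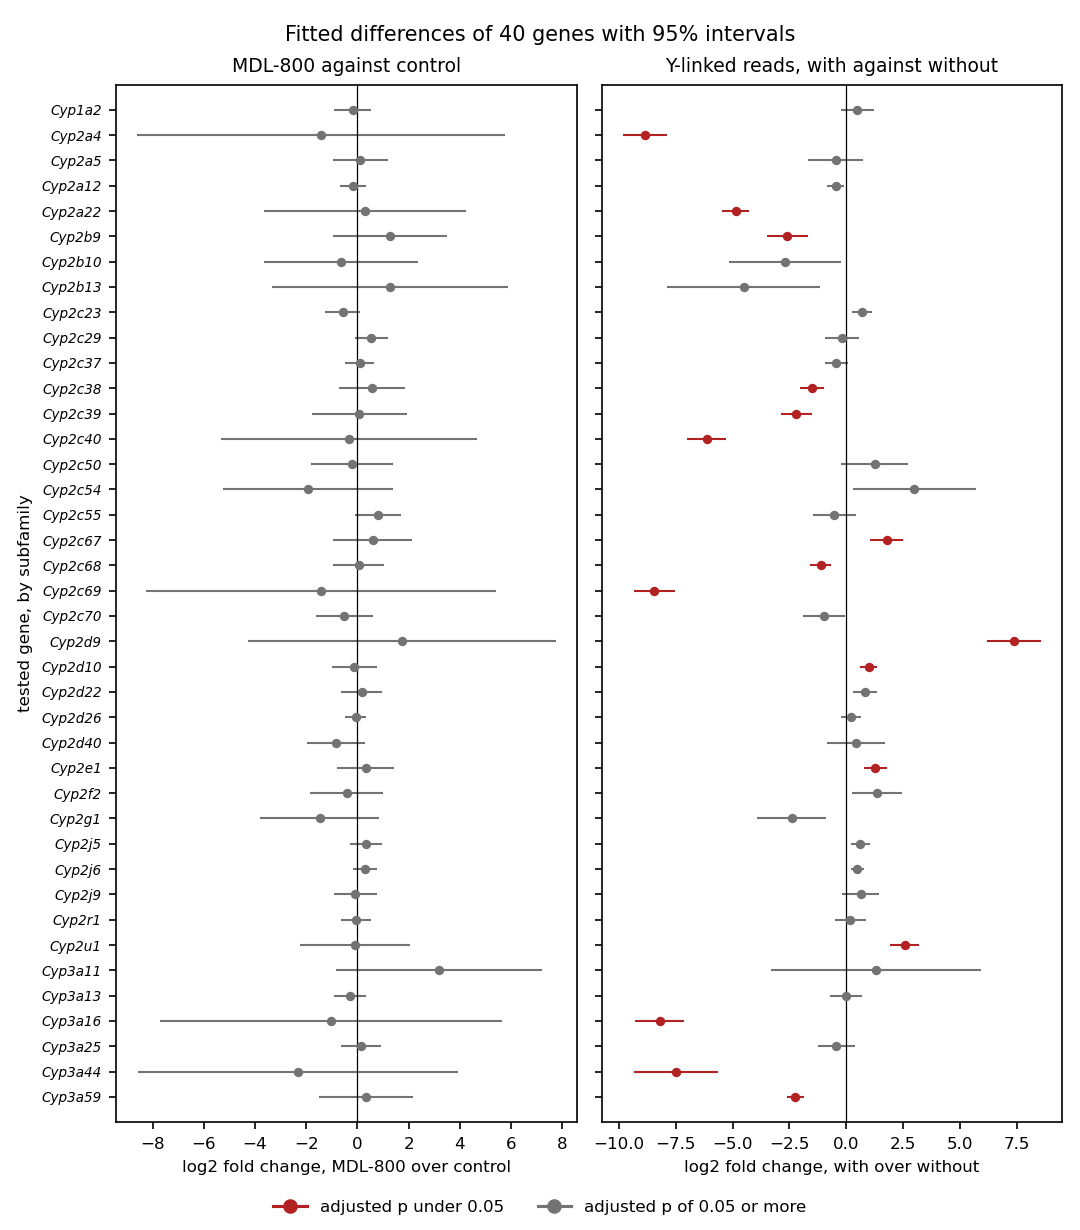
Fitted log2 fold changes of the 40 tested members with 95% intervals, for MDL-800 over control (left) and for libraries with over libraries without Y-linked reads at equal treatment (right), red where the adjusted p was under 0.05. No member was red on the left and 16 were red on the right.

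Standard errors of the MDL-800 difference were largest in members that differed with Y-linked reads. Cyp2a4, Cyp2c69, Cyp3a16, Cyp3a44 and Cyp2d9 had standard errors of 2.55 to 3.05 over all 7 libraries, and of 0.37 to 0.73 among the Y-negative ones. Whether the MDL-800 difference itself depended on Y-linked reads was tested as an interaction, with 1 library of each treatment holding such reads. These lone libraries are assumed to vary like the 5 others, which alone supply the spread, with 3 residual degrees of freedom. Limma called 0 of 40 members, where 0.0% of all genes passed, and 5 had an unadjusted p under 0.05 against 2.22% of all genes. The interaction was above 0 for 28 members, beside 50.2% of all genes. The 5 were Cyp2a5, Cyp2u1, Cyp2g1, Cyp2c39 and Cyp2d9, all with a limma adjusted p of 0.9999. With voom on recovered reads 0 passed and 3 had an unadjusted p under 0.05. For Cyp2a5 the log2 difference of MDL-800 over control was 1.66 between the 2 libraries with Y-linked reads and -0.475 among the others.

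Some close relatives with nearly the same sequence before their start sites had different levels, and others were low together. Over windows of 300 bases, Cyp2b9 and Cyp2b13 matched at 99.33%, Cyp2c40 and Cyp2c69 at 98.89%, and Cyp3a16 and Cyp3a44 at 95.95%. Both members of each of these pairs were lower with Y-linked reads without overlap. Pairs that differed are shown here. The 250 bases before the RefSeq start of Cyp2a4 (chr7:26306942-26307191, plus strand, GRCm38.p6) and of Cyp2a5 (chr7:26835089-26835338, plus strand) matched at 98.4% of aligned bases, with 4 substitutions. They are shown because Cyp2a4 fell to 1 and 3 reads in the libraries with Y-linked reads while Cyp2a5 stood at 94.6 and 301 FPKM there. Capitals mark bases that differ from the partner or have none in it, 5′ to 3′ on the strand of the gene.
Cyp2a4: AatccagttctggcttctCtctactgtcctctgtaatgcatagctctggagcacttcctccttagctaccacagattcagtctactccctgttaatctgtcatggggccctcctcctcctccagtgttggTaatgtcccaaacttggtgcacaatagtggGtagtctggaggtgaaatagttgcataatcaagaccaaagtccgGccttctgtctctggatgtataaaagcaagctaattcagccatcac
Cyp2a5: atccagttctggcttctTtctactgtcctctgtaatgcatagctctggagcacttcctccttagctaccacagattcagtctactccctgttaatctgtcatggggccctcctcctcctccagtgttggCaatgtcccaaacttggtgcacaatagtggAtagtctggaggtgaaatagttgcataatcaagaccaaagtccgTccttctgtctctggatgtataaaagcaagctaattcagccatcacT
A TATAAA element stands in lower case near the end of both.

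Levels also differed between Cyp2d9 (chr15:82452127-82452376, plus strand) and Cyp2d11 (chr15:82394023-82394272, minus strand), which matched at 93.6% of aligned bases with 15 substitutions. Cyp2d9 reached 635 and 524 FPKM with Y-linked reads, where Cyp2d11 was at 1.78 and 0.364 FPKM. Without such reads Cyp2d9 was at 0.319 to 7.22 FPKM and Cyp2d11 at 0.0323 to 0.640 FPKM. Cyp2d11 was highest in control 1, lay below the filter and was not tested.
Cyp2d9: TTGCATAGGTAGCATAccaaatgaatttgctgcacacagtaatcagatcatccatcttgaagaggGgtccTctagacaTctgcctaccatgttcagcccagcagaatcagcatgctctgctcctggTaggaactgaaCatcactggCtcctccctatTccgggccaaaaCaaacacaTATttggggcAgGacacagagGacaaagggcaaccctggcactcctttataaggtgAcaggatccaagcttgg
Cyp2d11: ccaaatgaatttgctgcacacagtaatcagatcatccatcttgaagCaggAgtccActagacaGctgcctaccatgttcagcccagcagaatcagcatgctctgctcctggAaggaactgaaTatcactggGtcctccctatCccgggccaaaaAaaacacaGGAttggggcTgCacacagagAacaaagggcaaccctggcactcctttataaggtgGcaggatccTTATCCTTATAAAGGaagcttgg
The longest run of capitals in Cyp2d11 holds a TATAAA. Both genes also hold this element on the opposite strand, in the lower-case stretch they share.

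In 3a, Cyp3a59 (chr5:146079008-146079257, plus strand) and Cyp3a25 (chr5:146009619-146009868, minus strand) matched at 95.6% with 11 substitutions. Cyp3a59 was 5.01-fold lower with Y-linked reads, at 4.51 and 8.65 FPKM against 27.1 to 44.1 FPKM, and Cyp3a25 did not pass, at 175.0 and 233 FPKM against 192 to 446 FPKM.
Cyp3a59: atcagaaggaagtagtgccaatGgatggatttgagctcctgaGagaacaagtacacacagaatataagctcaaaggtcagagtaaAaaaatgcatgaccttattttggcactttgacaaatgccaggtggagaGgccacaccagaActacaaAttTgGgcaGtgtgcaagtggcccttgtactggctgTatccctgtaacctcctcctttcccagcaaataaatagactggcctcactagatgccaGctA
Cyp3a25: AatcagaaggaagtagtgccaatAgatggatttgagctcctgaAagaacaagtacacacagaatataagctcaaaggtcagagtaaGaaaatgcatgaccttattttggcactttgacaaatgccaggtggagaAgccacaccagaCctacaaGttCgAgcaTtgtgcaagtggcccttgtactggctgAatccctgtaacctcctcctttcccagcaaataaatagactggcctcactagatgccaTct

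Promoter windows of 300 bases (250 before to 50 after the start) were found in RefSeq for 50 of the 58 members and searched on both strands. TATAAA was in 50% of the members' windows and 14.2% of all 27025 windows. CAAAGTCCA, a form of the HNF4A element, was in 16% against 0.477%, and TGACCT, a core element of nuclear receptors, in 36% against 16.0%. The AhR core GCGTG was in 18% against 32.5%, and the STAT element TTCNNNGAA in 4% against 8.47%. The element ATCGAT was in 0 of the members' windows, against 0.881% of all windows. DR4 repeats of nuclear receptors, of AGTTCA or of AGGTCA, were in 0, against 0.0148% and 0.0111% of all windows. Elements this rare were too few for 0 of 50 windows to mark the members. CAAAGTCCA and TGACCT can overlap in a window. Family members descend from common copies, so their windows are not independent, and a match is a description of these letters.

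Reads of near copies can be assigned to the wrong member. Of the 40 tested members, 25 shared over 10% of the 50-base runs of their longest coding transcript with another gene of GENCODE M21, and 5 shared none. The shares were 72.1% for Cyp2c40, 54.8% for Cyp2c69 and 52.8% for Cyp2c67, so the split of reads among these is uncertain. Cyp2a4 shared 36.1% with Cyp2a5, and held 1 and 3 reads where Cyp2a5 was at 94.6 and 301 FPKM. Cyp2c23, Cyp2c70, Cyp2j9, Cyp2r1 and Cyp3a13 shared no such run.

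Among the receptors and their partners, limma passed none. Of 13 tested, 10 were above 0, the median being 0.10, where 54.2% of all genes were above 0. PXR itself (Nr1i2) measured 39.7, 21.2, 23.2 and 39.6 FPKM in control and 32.5, 36.0 and 39.7 FPKM in MDL-800, with overlapping groups and a log2 fold change of 0.27 (SE 0.26). CAR (Nr1i3) was at 0.22, Ahr at 0.10 and Rxra, the partner of both nuclear receptors, at 0.11. Ppara, the fatty acid receptor, measured 19.6, 9.65, 16.0 and 7.27 FPKM in control and 18.7, 39.5 and 26.7 FPKM in MDL-800. It had a log2 fold change of 1.08 (SE 0.38) and a limma adjusted p of 0.950, and the groups overlapped. Ppara was the 1 gene of the 13 with an unadjusted limma p under 0.05, at 0.0238, where 4.85% of all genes had one. Nfe2l2, a regulator of antioxidant genes, was at 0.18.

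Targets of CAR and PXR outside the P450 families were above 0 for 18 of 24 tested, with a median of 0.32, and 0 passed (limma). The 1 gene with an unadjusted p under 0.05, where 4.85% of all genes had one, was Abcc3, an exporter of conjugated bile acids and drugs, which measured 28.8, 26.6, 12.9 and 16.7 FPKM in control and 33.6, 43.9 and 44.9 FPKM in MDL-800. Every MDL-800 library was above every control, with a log2 fold change of 0.97 (SE 0.29, limma, adjusted p = 0.950). The glucuronosyltransferase gene Ugt2b35 also did not overlap, at 44.4, 30.7, 43.6 and 34.5 FPKM in control and 45.0, 59.0 and 47.2 FPKM in MDL-800. These were 2 of the 24, beside 4.03% of all genes higher without overlap. Gsta1, a glutathione transferase, measured 1.01, 0.269, 0.369 and 0.780 FPKM in control and 0.969, 1.55 and 8.70 FPKM in MDL-800. Its highest library by far was MDL-800 3. Abcc2 was at 0.45. The largest difference of the list was in the lower direction. Sult1e1, the oestrogen sulfotransferase, measured 0.111, 20.6, 8.87 and 95.8 FPKM in control and 1.63, 0.363 and 1.01 FPKM in MDL-800, with control 1 the lowest library. Its log2 fold change was -2.67 (SE 1.35), and -3.58 among the Y-negative libraries, where both MDL-800 libraries were below all 3 controls.

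The 5 tested AhR targets outside the families had a median of 0.36, with 3 above 0, and 0 passed (limma). Ugt1a6b measured 12.5, 5.11, 4.06 and 7.38 FPKM in control and 10.1, 23.0 and 9.66 FPKM in MDL-800, and the library with Y-linked reads was the highest of each treatment. Its log2 fold change was 0.88 (SE 0.42), and that of Nqo1 was 0.36 (SE 0.55), which changed sign without control 1 or without MDL-800 3. Ugt1a6a was at -0.18. Ahrr and Aldh3a1, which rise with AhR activity, were under 0.24 FPKM in every library.

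Genes that supply electrons and haem gave 5 of 8 above 0 and a median of 0.04, and 0 passed (limma). Por, the P450 oxidoreductase, measured 43.2, 63.5, 80.9 and 142 FPKM in control and 55.8, 59.7 and 63.7 FPKM in MDL-800, and control 4 was the highest. Its log2 fold change was -0.33 (SE 0.37). Alas1, the rate-limiting enzyme of haem synthesis, was also highest in control 4, at 56.8 FPKM, and its value of -0.29 turned to 0.04 without that library. Cyb5b and Fech were at 0.41 and 0.29.

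**Figure D5:**
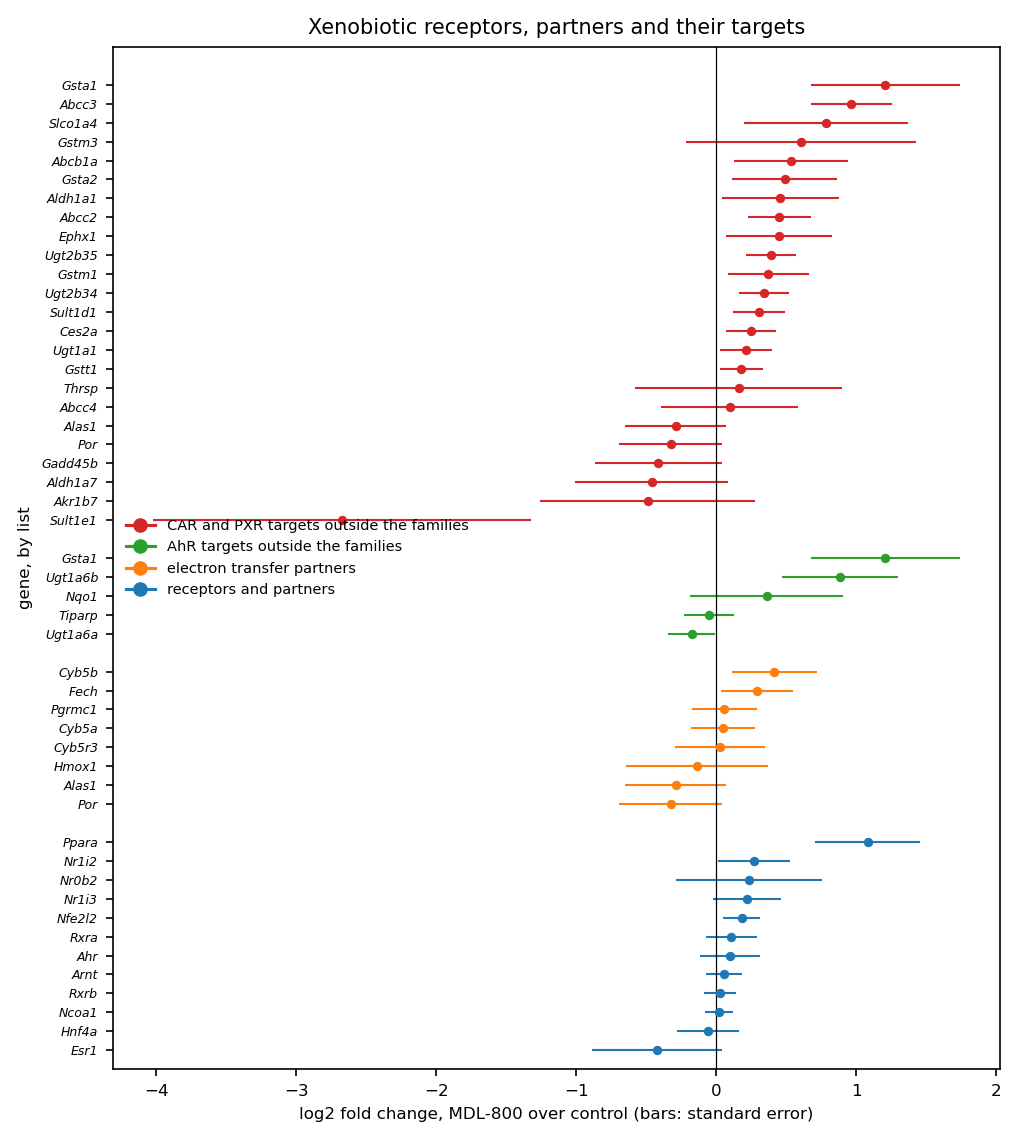
Log2 fold changes of MDL-800 over control with standard errors for the receptors and partners, electron transfer partners, AhR targets and CAR and PXR targets that were tested and are reported here. Abcc3, Gsta1 and Ppara, at 0.97, 1.21 and 1.08, lay furthest to the right, and no gene had an adjusted p under 0.05.

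Among 12 regulators of growth hormone signalling and sex-biased liver expression, 3 fell with Y-linked reads, beside 1.1% of all genes. Cux2, Trim24 and Socs2, factors known from growth hormone signalling in female liver, were lower, at -2.38, -1.66 and -1.86 (limma, adjusted p = 0.0114, 0.0114 and 0.0264). The other 9 did not pass. Between treatments 1 of the 12 was above 0, Jak2 at 0.18, and 0 passed. The lowest p among the others belonged to Igf1, Foxa2 and Onecut1, at -0.32, -0.28 and -0.69. Of 12 sex-biased liver genes outside these families, 6 were higher and 4 lower with Y-linked reads by limma, beside 1.33% and 1.1% of all genes, and 0 passed between treatments. Between treatments Serpina1e, Sult3a1 and Hao2 were at -2.79, -3.16 and 1.24.

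Acute phase genes, which are known to rise in liver inflammation, were measured beside the comparison of treatments. All 9 tested were below 0 in MDL-800, with a median of -1.10, and their summed level was 6101 to 7640 FPKM against 9261 to 20249 FPKM in control. Limma passed 0 of them and 6 had an unadjusted p under 0.05, beside 4.85% of all genes, while 54.2% of all genes were above 0. Socs3, Saa1, Orm1 and Itih3 had the lowest p, at -0.97, -1.10, -1.19 and -0.57. Their part in the P450 values was not tested.

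Markers of other cells were compared in the same way. The 6 Kupffer cell markers summed to 118 and 123 FPKM in the libraries with Y-linked reads and 220 to 829 FPKM in the others. By treatment they summed to 123 to 429 FPKM in MDL-800 and 118 to 829 FPKM in control. Their median log2 fold change with Y-linked reads was -1.77, and 0 passed (limma). Marco went the other way, at 0.65, and was highest in MDL-800 2, at 31.5 FPKM. The 4 B cell markers summed to 2.03 to 16.0 FPKM in MDL-800 and 6.64 to 58.7 FPKM in control, and the 4 neutrophil markers to 11.6 to 81.5 and 22.3 to 288 FPKM. None of the Kupffer cell, B cell or neutrophil markers was at 0 in every library. Stellate cell markers summed to 81.0 to 116 FPKM in MDL-800 and 34.1 to 91.2 FPKM in control. Pericentral hepatocyte markers, from the zone where Cyp2e1 and Cyp1a2 are known to be highest, summed to 957 to 1434 FPKM in MDL-800 and 968 to 1170.2 FPKM in control. Periportal markers summed to 1833 to 3604 FPKM in MDL-800 and 1660 to 4115 FPKM in control. Of the 4 markers of adrenal gland or gonad, Cyp17a1 was at 1.11 and 5.23 FPKM in the libraries with Y-linked reads and 40.7 to 155 FPKM in the others, with a log2 fold change of -4.16. Cyp11b1 was at 0 in every library, Cyp11a1 at or under 0.551 FPKM and Star at or under 1.204 FPKM. Sinusoidal endothelium markers summed to 26.0 to 34.1 FPKM in MDL-800 and 11.9 to 37.5 FPKM in control, cholangiocyte markers to at most 5.07 and 4.26 FPKM, T cell markers to 2.07 to 8.92 and 2.74 to 7.50 FPKM, and intestine markers to 114 to 161 and 45.9 to 121 FPKM. Of the 3 intestine markers Fabp2 made up nearly the whole sum, Vil1 was at or under 0.134 FPKM and Cdx1 was at 0 in every library. The part of these cell types in the P450 values was not tested.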

How the data were processed

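RNA-seq of liver was measured in 7 libraries, 3 MDL-800 and 4 control, grouped by their titles. Per the submitters' processing notes, reads were handled with TopHat2 2.0.14, Bowtie2 2.1.0 and Cufflinks 2.2.1 and build mm9 is named; the coordinates in the deposited table are those of GRCm38. The authors deposited FPKM per gene. FPKM times gene length gave whole reads (within 0.01) for 100% of values, so reads per library were recovered. Summed over genes they were 0.995 to 1.28 times the library size implied by the deposited FPKM.

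Genes averaging 1 FPKM or more were tested as log2(FPKM + 1) with limma 3.58.1 (trend, R 4.3.3), with Benjamini-Hochberg adjustment over 11394 genes and a threshold of 0.05. A fit with terms for treatment and Y-linked reads, and their interaction, used the same values. The methods were tested on simulated data. Alternatives were another pseudocount, filters, scalings, limma voom on recovered reads, a replicate block and leaving out each library. Replicate numbers did not pair the libraries. A count of 0 was limited by 3 reads per library. Intervals cover 95%.

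Members and gene lists were chosen with earlier results of these data known. Values in every library are given for the standard targets, the 2 most abundant members of the larger subfamilies, the 10 smallest p for MDL-800 and the 6 largest differences with Y-linked reads in each direction, and up to 4 genes of smallest p per list. Some genes that this rule selects are not reported here by name; counts over their lists include them. Nr1i3, Ahr, Rxra, Ahrr, Aldh3a1, Cux2, Trim24, Socs2, Sult1e1 and the adrenal and intestine markers were named outside this rule after their values were seen. Gsta1, Por, Alas1 and Ahrr each stand in 2 lists. Promoters came from RefSeq (GRCm38.p6), aligned with Biopython 1.88, and figures from matplotlib 3.10.9.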

Additional observations from a re-analysis of the deposited data

Results flagged for a closer look

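In the control group of 4, 5 of 59 items checked had 1 library far from the other 3 by Dixon's test at its 95% limit, where chance flags about 1 in 20. The library was control 1, which holds Y-linked reads, in each case. Cyp2a22 was 0.620 FPKM in it and 34.8 to 65.5 FPKM in the other controls. Cyp2a4 was 0.0397 FPKM against 445 to 1125 FPKM. Cyp2c69 was 0.312 FPKM against 548 to 729.8 FPKM. Cyp2d9 was 635 FPKM against 0.319 to 1.57 FPKM. Cyp2u1 was 10.5 FPKM against 0.324 to 0.362 FPKM.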

How the results depend on the processing

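No member was called between treatments by limma under any of 16 alternatives, and no gene of the receptor lists. The 16 members called with Y-linked reads became 9 without a filter on low values, 2 with a replicate block and 6 to 15 when 1 library was left out. The replicate numbers did not pair the libraries: same-numbered pairs correlated at -0.587, -0.553 and 0.0565, and MDL-800 2 correlated best with control 1, at 0.771. Without control 1 or MDL-800 2, the lone library with Y-linked reads is assumed to vary like the others. The median of all genes in the Y-linked comparison was 0.08, and -0.07 with summed reads as the denominator. The interaction called 0 members under 11 alternatives, which were chosen after seeing the data.

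Leaving out 1 library at a time turned the sign of these log2 differences for MDL-800, none of which had passed: Cyp1a2 ranged from -0.49 to 0.0202, Cyp2a22 from -0.95 to 1.89, Cyp2a4 from -3.75 to 1.35, Cyp2a5 from -0.26 to 0.42, Cyp2b10 from -1.46 to 0.24 and Cyp2c37 from -0.0774 to 0.23. Cyp2c40 ranged from -1.83 to 1.78, Cyp2c69 from -3.64 to 1.23, Cyp2d10 from -0.45 to 0.13, Cyp2d9 from -0.38 to 3.80, Cyp2e1 from -0.16 to 0.71, Cyp2u1 from -0.75 to 0.68 and Cyp3a16 from -3.17 to 1.60. Signs also turned for the members Cyp2a12, Cyp2c39, Cyp2c50, Cyp2c68, Cyp2d22, Cyp2j9, Cyp2r1 and Cyp3a59, the last ranging from -0.28 to 1.01. Alas1 ranged from -0.50 to 0.0372 and Nqo1 from -0.0485 to 0.79. Among the Y-negative libraries Cyp2a5 was -0.475 and Cyp2c40 0.28, and with a term for Y-linked reads Cyp2c40 was 0.18. With the replicate block Alas1 was 0.0372. In the Y-linked comparison Cyp2a5 ranged from -1.47 to 0.66, Cyp2c29 from -0.64 to 0.33, with 0.14 under the block, and Cyp3a11 from -0.65 to 3.06. The cause was not tested. Depth limits members at a few reads, such as Cyp2a4 and Cyp3a44 in control 1.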
